A study of Mus musculus with 4 samples.

Results

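Secretory cells of the mouse trachea were compared between cells that carried the Ki67-lineage reporter RNA and cells that carried little or none. Barcodes with at least 500 genes, at most 15% mitochondrial UMIs (unique molecular identifiers, each standing for 1 captured RNA) and at least 8000 UMIs were searched. A cell was taken as secretory where Scgb1a1, Scgb3a1, Scgb3a2 and Bpifa1 together gave at least 5% of its UMIs, with at least 1 UMI of the epithelial gene Epcam, none of the basal gene Trp63 and at most 2 of the ciliated genes Tmem212 and Ccdc153. Secretory cells with at least 5 eGFP UMIs per 10000 were called labelled and those with at most 0.5 per 10000 unlabelled. Among 39524 barcodes, 259 were labelled secretory cells, 1531 were unlabelled secretory cells and 4009 were secretory cells between both limits. The cells were thus chosen by their measured eGFP and by the 8 other genes above, and those values are described below without any test.

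The study holds 4 libraries, 1 for each combination of genotype and tracheal region. The knockout dorsal and knockout ventral libraries came from mice with P63-CreER, Ki67-lsl-Dre and Rosa26-rsr-GFP and with both Ctnnb1 alleles floxed (Ctnnb1-fl/fl). The control dorsal and control ventral libraries came from mice with the same 3 driver and reporter alleles and a single floxed copy (Ctnnb1-fl/+). All mice received tamoxifen and were collected 10 days later. The labels do not say how many mice each library holds, nor whether the dorsal and ventral libraries of a genotype came from the same mice, so p-values here measure only the spread of the label difference over 4 libraries. Values below stand in the order knockout dorsal, knockout ventral, control dorsal and control ventral unless stated.

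Secretory (club and goblet) cells line the airway, release antimicrobial proteins and mucins, and metabolise foreign compounds. Basal cells, marked by Trp63, Krt5 and Krt14, lie beneath them and give rise to secretory cells. In the reporter used here, tamoxifen-activated Cre in P63-expressing cells opens a Dre recombinase at the Ki67 locus, and Dre then switches on GFP for good once a cell has expressed the division gene Ki67. GFP in a secretory cell therefore points by design to a P63-expressing ancestor that expressed Ki67 after tamoxifen, with Cre acting on the floxed Ctnnb1 alleles of the same ancestor.

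The secretory cells numbered 1030, 699, 3042 and 1028, and they had medians of 53218.5, 55860, 38752.5 and 48510 UMIs. The libraries shared between 21 and 57 barcode sequences per pair. Scrublet marked 3 of 29, 1 of 31, 21 of 140 and 2 of 59 labelled cells as doublets, against 10 of 284, 2 of 164, 43 of 842 and 7 of 241 unlabelled cells. Marked cells were kept, and their removal is among the alternatives. Ctnnb1, the floxed gene that encodes beta-catenin, was at 185, 166, 227 and 226 CPM (normalised counts scaled to 1e6 UMIs) in labelled cells, against 201, 163, 200 and 187 CPM in unlabelled cells. Both labelled knockout values lay below both labelled control values, but no difference in the label effect between the genotypes was detected (log2 difference -0.27 ± 0.17 SE, knockout minus control, adjusted p = 0.914 by the edgeR quasi-likelihood test). Which exons were deleted was not stated in the labels, so Ctnnb1 RNA is no full check of the knockout.

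Few secretory cells reached the labelled limit, and eGFP RNA was present at a low level in every cell class. Labelled cells were 2.82% (29 of 1030, exact Clopper-Pearson 95% interval 1.89% to 4.02%), 4.43% (31 of 699, 3.03% to 6.24%), 4.60% (140 of 3042, 3.89% to 5.41%) and 5.74% (59 of 1028, 4.40% to 7.34%) of the secretory cells. Basal cells (at least 1 UMI each of Epcam and Trp63, at least 3 of Krt5 and under 5% from the 4 secretory genes) reached the same limit in 29.2%, 19.0%, 56.4% and 47.6% of cells, far above the secretory cells in every library. Fibroblasts, which lie outside the P63 lineage, reached it in 2.79%, 2.40%, 3.6% and 2.25% of cells. The fibroblasts had medians of 12424, 12032, 10951 and 13207 UMIs, fewer than the secretory cells.

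With each cell thinned to 8000 UMIs, 4 or more eGFP UMIs were found in 4.08%, 8.30%, 6.67% and 8.37% of secretory cells, against 4.42%, 4.15%, 6.34% and 4.59% of fibroblasts. The secretory share stood above the fibroblast share with separate 95% intervals in both ventral libraries (6.36% to 10.6% against 3.28% to 5.17% in the knockout, 6.75% to 10.2% against 3.75% to 5.56% in the control). In both dorsal libraries these intervals overlapped. At a limit of over 10 eGFP UMIs per 10000, without thinning, secretory cells were 1.91% (58 of 3042, 1.45% to 2.46%) in the control dorsal library, against 0.20% (3 of 1498, 0.0413% to 0.584%) of its fibroblasts. The intervals were also separate in the control ventral library (2.33%, 1.5% to 3.45%, against 0.321%, 0.129% to 0.661%). They overlapped in the knockout dorsal library (0.680%, 0.274% to 1.4%, against 0.260%, 0.0709% to 0.664%) and in the knockout ventral library (0.572%, 0.156% to 1.46%, against 0.218%, 0.0595% to 0.558%). The intervals at the higher limit were thus separate in both control libraries and overlapped in both knockout libraries. Intervals cover counting error only, and each library stands alone for its genotype and region. Whether secretory cells exceed the fibroblast background, and whether this differs by genotype or region, was not tested.

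**Figure D1:**
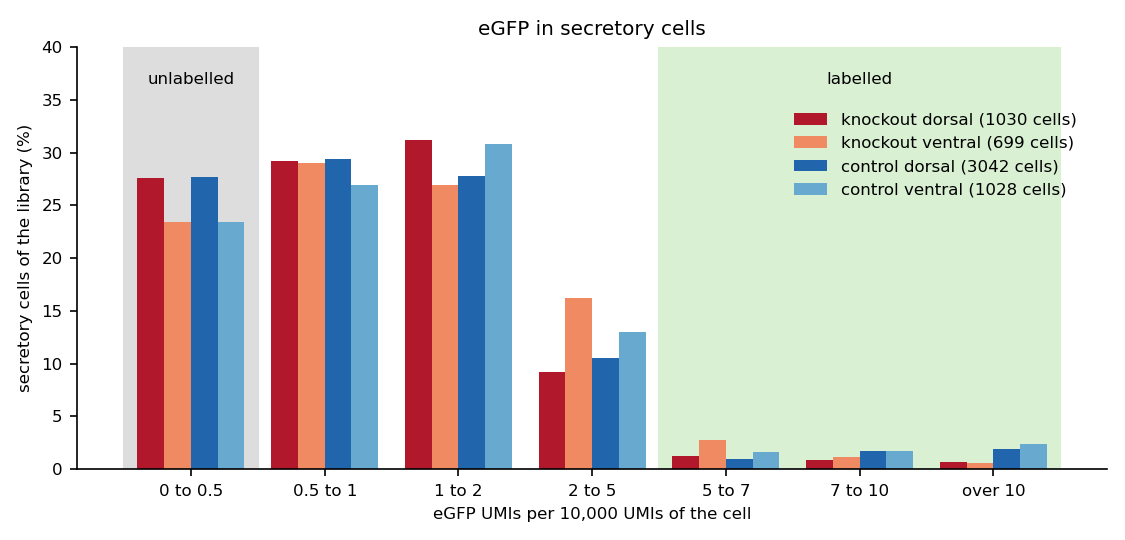
Secretory cells of each library (bars, % of the secretory cells of the library) by eGFP UMIs per 10000 UMIs of the cell, with the unlabelled range shaded grey and the labelled range green. Most cells of all 4 libraries lie between the limits, and labelled cells form a thin tail of 2.82% to 5.74%.

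The limits cut through a continuous range rather than a gap. The lowest labelled cells had 5.19, 5.10, 5.03 and 5.09 eGFP UMIs per 10000 and the highest cells left out had 4.98, 4.99, 4.99 and 4.94. The highest unlabelled cells had 0.499, 0.495, 0.50 and 0.494 per 10000. Labelled cells had medians of 7.55, 6.56, 9.23 and 8.55 eGFP UMIs per 10000, against 0.247, 0.239, 0.246 and 0.132 in unlabelled cells.

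The transcripts that define the secretory class were far less abundant in labelled cells, which is described here and not tested. The 4 secretory genes gave a median of 14.1%, 13.2%, 10.0% and 13.7% of UMIs in labelled cells, against 44.2%, 39.6%, 36.1% and 37.2% in unlabelled cells. Scgb1a1, which encodes the main club cell secretory protein, took 7.13%, 0.0768%, 3.34% and 0.268% of the summed UMIs of labelled cells, against 21.9%, 11.0%, 17.7% and 10.8% in unlabelled cells. Scgb3a2, another secretoglobin, took 1.46%, 0.340%, 1.26% and 0.788% in labelled cells, against 2.01%, 1.55%, 2.41% and 1.90% in unlabelled cells. Scgb1a1 was lowest in the labelled ventral cells, and in the knockout ventral library its level was below the 0.0972% that all 4 secretory genes together reached in fibroblasts. Those ventral cells met the rule mainly through Bpifa1, a palate, lung and nasal epithelium protein, at 12.6% and 14.2% of UMIs in labelled cells of the knockout and control, against 20.9% and 18.9% in unlabelled cells. In the dorsal labelled cells Bpifa1 was also above Scgb1a1, at 16.6% and 10.4% of UMIs in the knockout and control, against 18.1% and 15.4% in unlabelled cells. The word secretory thus rests on Bpifa1 more than on Scgb1a1 for labelled cells of all 4 libraries. Cyp2f2, a club cell cytochrome that the rule did not use, had a UMI in 100% of labelled cells of all 4 libraries at 8000 UMIs, against 98.8% to 100% of unlabelled cells and 22.1% to 52.8% of fibroblasts, but also in 99.6% to 100% of labelled basal cells.

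Labelled cells were shallower, held more kinds of transcript at equal depth and gave a larger share of their RNA to ribosomal protein genes. Their median depth was 30178, 31780, 26363.5 and 31677 UMIs, against 47636.5, 49684.5, 38963 and 34767 in unlabelled cells. At 8000 UMIs they had medians of 2446, 2477, 2623.5 and 2557 genes, against 1817, 1944.5, 2058.5 and 1895 in unlabelled cells. The labelled median was higher in 4 of 4 libraries, by 597 ± 59.0 genes (SD, n = 4, exact two-sided sign-flip permutation p = 0.125, the smallest that 4 pairs allow). The 8000 UMIs include those of the 4 secretory genes, so unlabelled cells had fewer UMIs left for all other genes. How much of the difference in gene number comes from this was not tested. Ribosomal protein genes took a median of 12.5%, 11.7%, 9.20% and 10.4% of UMIs in labelled cells, against 5.80%, 5.23%, 5.16% and 6.39% in unlabelled cells, which was higher in 4 of 4 libraries by 5.31 ± 1.49 percentage points (SD, n = 4, exact permutation p = 0.125). A smaller share for the 4 secretory genes raises every other share, and after scaling on the trimmed mean of genes the 81 measured ribosomal protein genes had a median log2 fold change of 0.27, with 25 higher and 0 lower.

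Outside the genes of the rule, labelled secretory cells held more RNA of basal and hillock genes and less RNA of secreted defence proteins and of several detoxifying enzymes. That held against all unlabelled secretory cells, and far fewer genes differed after matching on secretory share, as given below. UMIs were summed over the labelled and over the unlabelled cells of each library and compared in pairs by library. Of 9273 genes tested, 697 were higher and 630 lower in labelled cells at an adjusted p under 0.05 (7.52% and 6.79% of genes, 14.3% in all), and the median log2 fold change over all genes was 0.01. Leaving all rule genes out of the library size without trimmed scaling gave 865 higher and 512 lower genes, so that 62.8% of calls were higher in place of 52.5%. Of the called genes with a mean of at least 20 CPM, leaving out a few technical classes, 402 higher and 391 lower ones had the same sign in all 4 libraries. The control dorsal library holds most of the cells, and without it 313 genes were higher and 306 lower, while without the control ventral library 395 were higher and 390 lower.

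**Figure D2:**
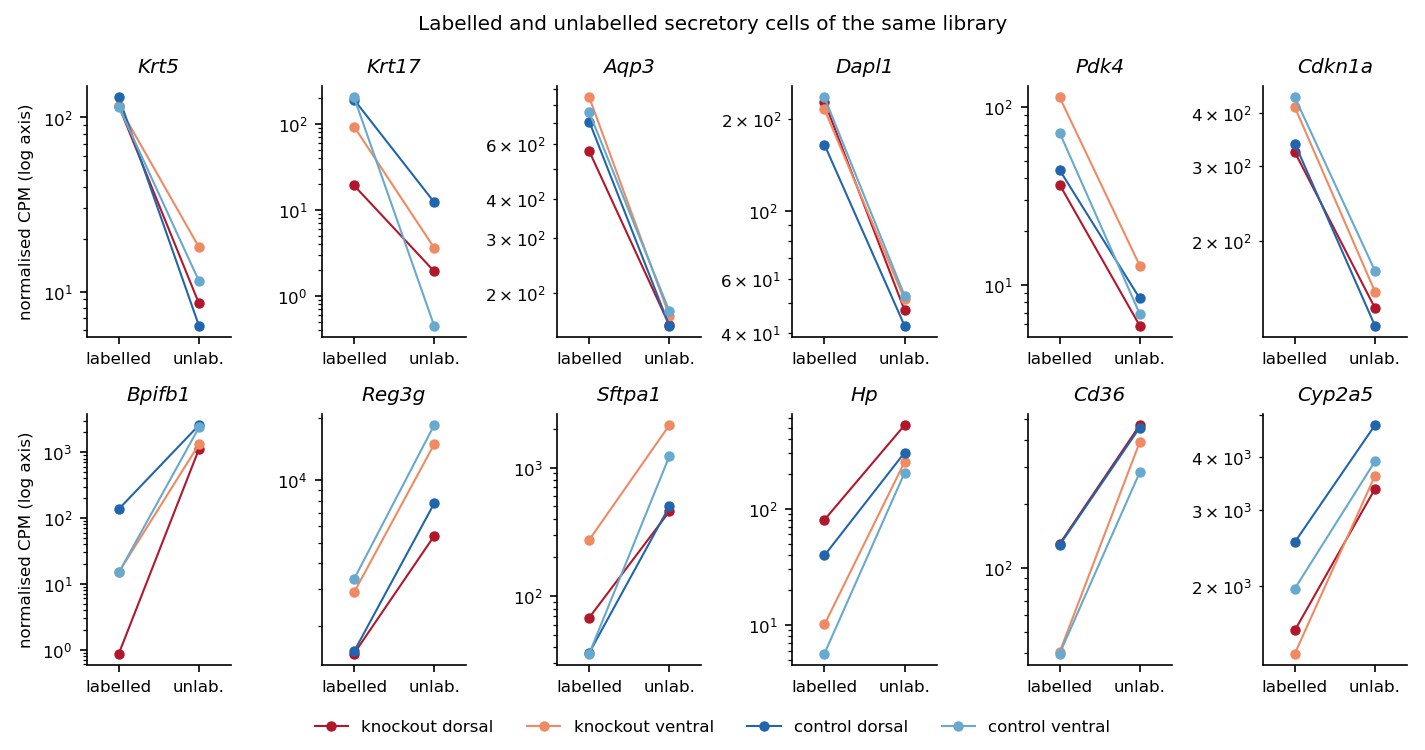
Normalised CPM (log axis) of 12 genes in labelled (left) and unlabelled (right) secretory cells, with 1 line per library. The 6 upper genes are higher in labelled cells of all 4 libraries, for example Krt5 at 115 to 130 CPM in labelled against 6.36 to 18.0 CPM in unlabelled cells, and the 6 lower genes are lower in labelled cells of all 4.

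Krt5, the keratin that marks basal cells, was at 116, 116, 130 and 115 CPM in labelled cells, against 8.54, 18.0, 6.36 and 11.5 CPM in unlabelled cells. The labelled level was nearly the same in all 4 libraries and no library overlapped the unlabelled range, an 11.9-fold difference (log2 fold change 3.57 ± 0.22 SE, adjusted p = 1.01e-05). Overlap between the groups is described here and below for named genes only, which were largely chosen by their change or p-value. It was not counted over all genes and adds nothing to the test. At 8000 UMIs a Krt5 UMI was present in 44.8%, 29.0%, 42.9% and 44.1% of labelled cells, against 4.23%, 4.27%, 3.68% and 3.73% of unlabelled cells and 0.325%, 0.437%, 2.60% and 0.872% of fibroblasts. Krt5 thus marked a minority of labelled cells at this depth, and in the dorsal control the unlabelled share was close to that of fibroblasts. Labelled basal cells held 1624, 917, 1629 and 1022 CPM of Krt5. Each basal cell had to hold at least 3 Krt5 UMIs, a limit not set for secretory cells. This limit alone raises the basal level, and the gap to the labelled secretory level was not tested.

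Krt17, a keratin of basal and stressed epithelium, was at 19.2, 92.8, 191 and 202 CPM in labelled cells, against 1.94, 3.62, 12.3 and 0.451 CPM in unlabelled cells. The groups did not overlap, and Krt17 had the largest fold among genes that met the naming rule (log2 fold change 4.72 ± 0.47, adjusted p = 0.000127), although 1 cell gave 26.8% of all labelled Krt17 UMIs. Aqp3, a water and glycerol channel of basal cells, was at 569, 847, 708 and 758 CPM in labelled cells, against 158, 169, 157 and 175 CPM in unlabelled cells (log2 fold change 2.12 ± 0.10, adjusted p = 2.37e-06). Sfn, the epithelial 14-3-3 protein stratifin, was at 744, 903, 1169 and 884 CPM in labelled cells, against 256, 329, 406 and 370 CPM in unlabelled cells (log2 fold change 1.44 ± 0.09, adjusted p = 1.01e-05). Neither Aqp3 nor Sfn overlapped between the groups. Of the 26 basal identity genes listed, 20 were measured, 19 were higher and 0 lower, with a median log2 fold change of 1.08. Among the 16 of these with at least 5 CPM in both groups, 15 were higher.

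Hillock cells are a squamous-like luminal population of the trachea marked by Krt13 and Krt4. Of 18 hillock and squamous genes, 13 were measured, 11 were higher and 0 lower, with a median of 1.35 (10 of 11 with at least 5 CPM in both groups). Dapl1, a gene of stratifying epithelium, was at 228, 215, 165 and 235 CPM in labelled cells, against 47.3, 51.4, 42.1 and 52.9 CPM in unlabelled cells, and did not overlap (log2 fold change 2.11 ± 0.09, adjusted p = 1.07e-06). Krt13 itself was at 17.5, 8.63, 229 and 11.0 CPM in labelled cells, against 8.80, 1.37, 18.2 and 10.1 CPM in unlabelled cells. Its difference lay mostly in the control dorsal library (log2 fold change 2.30 ± 0.53, adjusted p = 0.017, and 0.86 with adjusted p = 0.229 without that library). Krt6a, a keratin of squamous and injured epithelium, was at 0.873, 10.1, 99.5 and 29.7 CPM in labelled cells, against 1.14, 0.999, 5.86 and 3.72 CPM in unlabelled cells. It was higher in 3 of 4 libraries and in the fit over all of them (log2 fold change 3.55 ± 0.31, adjusted p = 7.05e-05). Of 18 adherens junction and desmosome genes, 15 were measured, 6 were higher and 0 lower, with a median of 0.17. The 9 others did not pass the test. Among the 14 with at least 5 CPM in both groups, 5 were higher. The desmosome genes Pkp1 (log2 fold change 2.46), Dsc2 (1.84) and Perp (0.87) were higher, each with non-overlapping groups. Of the 15 genes of that list, 0 were called against unlabelled cells matched on secretory share, a comparison described below.

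**Figure D3:**
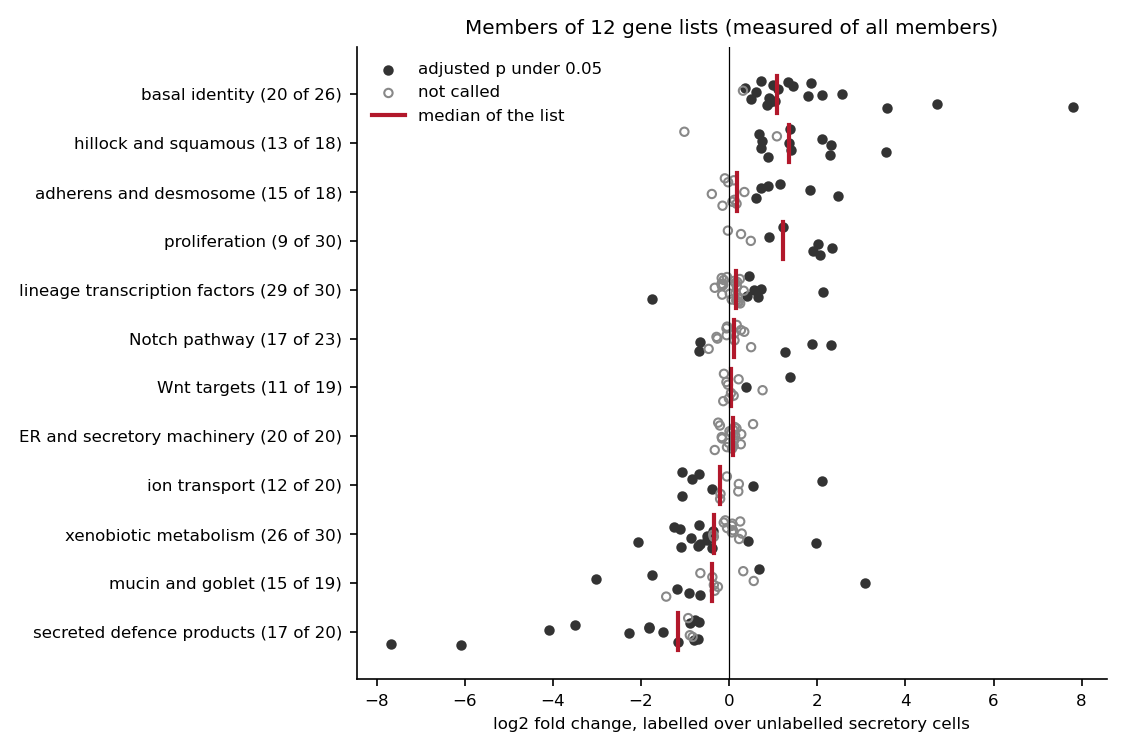
Log2 fold change of every measured member of 12 gene lists, labelled over unlabelled secretory cells (filled points pass an adjusted p under 0.05, open points do not, red bars are list medians). Basal identity and hillock and squamous genes lie to the right (medians 1.08 and 1.35), secreted defence products to the left (median -1.17), and the 20 genes of the endoplasmic reticulum and secretory machinery lie around 0.

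Promoter sequences are shown for a pair of higher genes (Krt5, Aqp3) and a pair of lower genes (Reg3g, Sftpa1), chosen after their values were seen, so that the 2 directions can be read beside their start sites. They are RefSeq sequences of build GRCm38.p6, not of the GRCm39 build of the counts, and run 5′ to 3′ from 250 bases before the start. Krt5 is at chr15:101712856-101713155 (minus strand), Aqp3 at chr4:41098134-41098433 (minus strand), Reg3g at chr6:78468825-78469124 (minus strand) and Sftpa1 at chr14:41131538-41131837 (plus strand). Capitals mark TATAAA or its reverse complement TTTATA, the TATA box letters.
Krt5: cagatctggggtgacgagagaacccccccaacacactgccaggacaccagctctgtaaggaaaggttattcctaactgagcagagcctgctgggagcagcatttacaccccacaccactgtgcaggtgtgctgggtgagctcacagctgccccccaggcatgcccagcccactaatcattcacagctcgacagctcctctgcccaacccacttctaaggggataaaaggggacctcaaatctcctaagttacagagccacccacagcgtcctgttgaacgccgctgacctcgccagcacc
Aqp3: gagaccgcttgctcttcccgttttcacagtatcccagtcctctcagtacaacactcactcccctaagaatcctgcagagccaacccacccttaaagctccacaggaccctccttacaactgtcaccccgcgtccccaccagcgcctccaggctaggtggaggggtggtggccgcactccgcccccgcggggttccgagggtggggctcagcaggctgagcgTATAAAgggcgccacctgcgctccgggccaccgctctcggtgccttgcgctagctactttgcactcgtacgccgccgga
Reg3g: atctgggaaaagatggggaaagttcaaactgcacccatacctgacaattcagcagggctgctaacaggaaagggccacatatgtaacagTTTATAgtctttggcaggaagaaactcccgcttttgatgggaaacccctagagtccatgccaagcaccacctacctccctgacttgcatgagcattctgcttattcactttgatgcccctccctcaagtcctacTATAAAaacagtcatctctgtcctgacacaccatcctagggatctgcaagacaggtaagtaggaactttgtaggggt
Sftpa1: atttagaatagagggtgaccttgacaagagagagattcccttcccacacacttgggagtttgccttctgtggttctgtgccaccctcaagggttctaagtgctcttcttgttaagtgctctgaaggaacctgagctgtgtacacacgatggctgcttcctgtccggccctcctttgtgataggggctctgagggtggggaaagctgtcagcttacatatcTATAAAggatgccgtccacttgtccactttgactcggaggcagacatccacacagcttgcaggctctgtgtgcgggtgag
TATAAA on the gene's strand began at position -29 in Aqp3, -27 in Reg3g and -30 in Sftpa1, counted from the start as 0, and Reg3g also held the reverse complement at -161. Krt5 held neither. Of 32851 promoters of this length, 8.32% held TATAAA on the gene's strand, 13.6% on either strand and 1.84% on the gene's strand between -35 and -20. The motif thus stood in genes of both directions.

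Division genes were low in both groups. Of 30 proliferation genes, 9 passed the filter on low values, 6 of them higher and 0 lower (median 1.21), but 1 of the 4 with at least 5 CPM in both groups was higher. Ube2c, which marks cells in mitosis, was at 0.873, 0.719, 57.6 and 0.354 CPM in labelled cells, against 0.616, 0.250, 13.2 and 0.789 CPM in unlabelled cells. Only the control dorsal library held more than 1 labelled Ube2c UMI, and 1 cell gave 46.0% of the labelled total over all libraries. Mki67 itself, the gene behind the reporter, had a UMI at 8000 UMIs in 0 of 29, 0 of 31, 3 of 140 and 2 of 59 labelled cells, against 0 of 284, 0 of 164, 11 of 842 and 0 of 241 unlabelled cells and 0.334% to 0.546% of fibroblasts. A difference in Mki67 was not detectable at these cell numbers.

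Regulators of the G1 phase differed in both directions, with 5 of 18 measured genes higher and 4 lower (median 0.10). Cdkn1a, which encodes the cell cycle inhibitor p21, was at 324, 413, 339 and 435 CPM in labelled cells, against 139, 152, 127 and 171 CPM in unlabelled cells, and did not overlap (log2 fold change 1.36 ± 0.09, adjusted p = 1.01e-05). Myc, a growth-promoting transcription factor, was at 40.1, 106, 171 and 119 CPM in labelled cells, against 18.9, 22.0, 73.4 and 34.3 CPM in unlabelled cells, higher within each library (log2 fold change 1.59 ± 0.17, adjusted p = 0.000172). Ccnd1, which encodes cyclin D1, was at 45.4, 64.0, 138 and 70.4 CPM in labelled cells, against 160, 128, 211 and 132 CPM in unlabelled cells, lower within each library (log2 fold change -1.01 ± 0.16, adjusted p = 0.00169).

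Several of the most raised genes have other known roles. Pdk4, a kinase that restrains pyruvate oxidation, was at 36.7, 114, 44.3 and 71.8 CPM in labelled cells, against 5.90, 12.9, 8.40 and 6.88 CPM in unlabelled cells (log2 fold change 2.86 ± 0.16, adjusted p = 6.68e-06). Ifi202b, an interferon-inducible gene of the p200 family, was at 106, 244, 335 and 196 CPM in labelled cells, against 17.9, 45.8, 64.1 and 45.4 CPM in unlabelled cells (log2 fold change 2.36 ± 0.10, adjusted p = 1.07e-06). Neither gene overlapped between the groups. The interferon list as a whole had 1 of 20 measured genes higher and 1 lower (median -0.04). Among the 17 with at least 5 CPM in both groups, 0 were higher and 1 was lower. The growth factor gene Ptn (log2 fold change 2.52), the serpin gene Serpinb5 (2.12) and the chloride channel accessory gene Clca3b (2.29) were also higher within all 4 libraries.

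Calcb, which encodes a calcitonin gene-related peptide, was at 223, 119, 90.2 and 38.2 CPM in labelled cells, against 6.69, 2.50, 25.7 and 5.52 CPM in unlabelled cells, in 39 labelled and 81 unlabelled cells (log2 fold change 3.48 ± 0.50, adjusted p = 0.00121). Lman1l, named for its likeness to a cargo receptor, was at 0.873, 135, 0.359 and 92.7 CPM in labelled cells, against 0.528, 2.50, 0.198 and 8.57 CPM in unlabelled cells, so its difference (log2 fold change 4.07 ± 0.44) rested on 2 ventral libraries and 16 labelled cells. Its level did not follow the strength of the label. In the knockout ventral library it was at 289.8, 298, 122 and 0 UMIs per 1e6 UMIs outside the 4 secretory genes in cells with 2 to 5, 5 to 7, 7 to 10 and over 10 eGFP UMIs per 10000, and in the control ventral library at 350.1, 226, 206 and 0. Cells with 2 to 5, which count as neither labelled nor unlabelled, thus held Lman1l at about the level of labelled cells near the limit or above it, and no Lman1l UMI was counted in the 4 knockout and 24 control ventral cells over 10.

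Genes of secreted defence proteins were mostly lower in labelled cells. Of 20 listed genes that the rule did not use, 17 were measured, 14 were lower and 0 higher, with a median log2 fold change of -1.17 (12 of 15 with at least 5 CPM in both groups were lower). Reg3g, an antibacterial lectin, was at 1469, 2893, 1503 and 3353 CPM in labelled cells, against 5402, 14912, 7747 and 18437 CPM in unlabelled cells. The ventral level was higher than the dorsal level in both groups, and labelled cells were lower in every library (log2 fold change -2.27 ± 0.12, adjusted p = 4.63e-06).

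Bpifb1, a secreted relative of Bpifa1, was at 0.873, 15.1, 137 and 14.9 CPM in labelled cells, against 1116, 1317, 2579 and 2382 CPM in unlabelled cells, the largest fall among the named genes that passed the rule (log2 fold change -6.09 ± 0.54, adjusted p = 7.05e-05). One cell gave 55.9% of the labelled Bpifb1 UMIs. Bpifb5, of the same family, had 0, 0, 0 and 1 UMI in labelled cells, against 33, 177, 721 and 223 UMIs in unlabelled cells. Sftpa1, surfactant protein A, was at 68.1, 274, 36.2 and 35.7 CPM in labelled cells, against 455, 2135, 498 and 1223 CPM in unlabelled cells (log2 fold change -3.63 ± 0.32, adjusted p = 7.05e-05). Hp, haptoglobin, was at 80.3, 10.1, 39.6 and 5.66 CPM in labelled cells, against 524, 253, 304 and 204 CPM in unlabelled cells (log2 fold change -3.50 ± 0.31, adjusted p = 7.05e-05). None of these genes overlapped between the groups.

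Enzymes of xenobiotic metabolism were split. Of 26 measured genes of 30, 12 were lower, 2 were higher and 12 did not pass the test, with a median of -0.35. Among the 23 with at least 5 CPM in both groups, 11 were lower and 1 was higher. Cyp2a5, a cytochrome of the nasal and airway lining, was at 1579, 1394, 2533 and 1974 CPM in labelled cells, against 3367, 3614, 4737 and 3902 CPM in unlabelled cells (log2 fold change -1.09 ± 0.10, adjusted p = 0.000108). Fmo1 (log2 fold change -2.06) and the carboxylesterase gene Ces1f (-1.26) were lower too. Mucin and goblet genes had 5 of 15 measured genes lower and 2 higher (median -0.38). Itln1, the goblet cell lectin intelectin, was at 0.873, 0, 120 and 182 CPM in labelled cells, against 10.1, 13.2, 964 and 1383 CPM in unlabelled cells (log2 fold change -3.03 ± 0.17, adjusted p = 6.68e-06), and its level was far lower in both knockout libraries than in both control libraries, in labelled and in unlabelled cells. Of the 2 higher goblet genes, Tff1 had 97.0% of its labelled UMIs in 1 cell.

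Other lower genes included the fatty acid transporter gene Cd36 (log2 fold change -2.38), the complement gene Cfb (-2.69), the transferrin gene Trf (-2.36), the claudin gene Cldn22 (-2.60), the sulfotransferase gene Sult1c1 (-3.77) and the uncharacterised gene AU021092 (-2.45). Ion transport genes had 5 of 12 measured genes lower and 2 higher (median -0.20), with the chloride channel gene Ano1 lower (-1.07) and the water channel genes Aqp3, given above, and Aqp4 (0.55) higher. Cd74 (-3.52) and the 3 other measured class II genes were lower, but only 1 of these 4 had at least 5 CPM in both groups. All listed class II genes together were at 4.68, 30.3, 11.6 and 22.8 CPM without trimmed scaling in labelled cells. In unlabelled cells they were at 192, 82.9, 12.9 and 188, so the control dorsal library showed little difference. At least 10 class II UMIs were held by 1 of 284, 3 of 164, 2 of 842 and 3 of 241 unlabelled cells. With unlabelled cells limited to 0 eGFP UMIs the sign of Cd74 turned and it did not pass the test, at 0.062. The median of the list there was the Cd74 value itself, in place of -4.08 over 4 genes. That median thus gives no level for the other class II genes. Cd74 UMIs came from 19 labelled and 110 unlabelled cells, and Cd74 and the matrix gene Mgp (-2.61) could not be refitted once cells with at least 10 UMIs of other cell types' genes were left out.

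Genes of the Notch pathway, which directs basal cells towards the secretory fate, had 3 of 17 measured members higher and 2 lower (median 0.12). Among the 15 with at least 5 CPM in both groups, 1 was higher and 2 were lower. The ligand gene Jag2 was at 6.98, 6.47, 10.4 and 8.14 CPM in labelled cells, against 1.76, 2.75, 1.19 and 1.80 CPM in unlabelled cells (log2 fold change 2.31 ± 0.33, adjusted p = 0.00108). The receptor gene Notch1 was higher (1.26 ± 0.19, adjusted p = 0.00133) and the target gene Hes1 was lower (-0.65 ± 0.12, adjusted p = 0.0054), and none of the 3 overlapped between the groups. Of 11 measured Wnt target genes, 2 were higher and 0 lower (median 0.04), with the ligand gene Wnt4 at a log2 fold change of 1.38. Of 29 measured lineage transcription factor genes, 6 were higher and 1 lower (median 0.16). Among the 28 with at least 5 CPM in both groups, 5 were higher and 1 lower. The epidermal regulator Grhl3 was at 2.14 and the ETS factor gene Elf5 at -1.74.

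The remaining lists are given beside the 14.3% of all genes that were called. All 20 genes of the endoplasmic reticulum and secretory machinery were measured and 0 passed the test (the lowest adjusted p was 0.16, for the retrieval receptor gene Kdelr2 at -0.21). Of 15 genes of the multiciliation programme 4 were measured and 1 was higher, Foxj1, its master regulator, at a log2 fold change of 1.23. Of 20 axoneme genes 4 were measured, 0 were higher and 1 was lower. The rule left out cells with more than 2 UMIs of Tmem212 and Ccdc153, so both lists were read in cells chosen against ciliated ones. Luminal keratins and claudins had 3 of 14 higher and 1 lower, and epithelial alarm genes 3 of 12 in each direction. Retinoid genes had 2 of 8 higher and 3 lower, and glucocorticoid-responsive genes 2 of 14 higher and 1 lower. Circadian clock genes had 1 of 11 higher and 2 lower. With at least 5 CPM in both groups, 2 of 10 epithelial alarm genes were higher and 3 lower. For circadian clock genes this limit left 0 of 10 higher and 2 lower. Genes marking the dorsal region had 4 of 8 higher and 0 lower (median 1.29), or 3 of 7 higher with at least 5 CPM in both groups. Those marking the ventral region had 0 of 6 higher and 2 lower (median -0.40). Genes raised by tissue handling had 1 of 18 higher and 4 lower (median -0.29).

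Cells with fibroblast RNA were a larger share of labelled than of unlabelled cells in 4 of 4 libraries, while the amount of fibroblast RNA was higher in labelled cells of 2 libraries and lower in those of the other two. Its part in the differences is measured here only by leaving such cells out. Cells with at least 10 UMIs of fibroblast genes were 2 of 29, 3 of 31, 16 of 140 and 6 of 59 labelled cells, against 7 of 284, 3 of 164, 24 of 842 and 6 of 241 unlabelled cells. Fibroblast genes gave 78.6, 64.0, 269 and 76.9 UMIs per 1e6 in labelled cells, against 87.8, 18.1, 96.5 and 87.6 in unlabelled cells, and macrophage genes 14.5 to 23.4 in labelled cells, against 15.6 to 17.6 in unlabelled cells. Without cells that held at least 10 UMIs of fibroblast, chondrocyte, macrophage, lymphocyte or class II genes, 631 genes were higher and 537 lower, and Krt5 stayed at 3.6.

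Labelled cells also had less secretory RNA, and the gene differences were far fewer against unlabelled cells that matched them in this respect. Each labelled cell was paired with the unlabelled cell of its library nearest in the percent of UMIs from the 4 secretory genes (medians of 14.1%, 13.2%, 10.0% and 13.7% in labelled cells, against 13.9%, 12.5%, 10.1% and 14.2% in the matched cells). Of 9599 genes, 32 were then higher and 39 lower (0.333% and 0.406%). Of the 697 higher genes above, 631 kept a positive sign, and their median log2 fold change was 0.30 in place of 0.65. Of the lower genes, 601 of 630 were measured and 526 kept a negative sign, with a median of -0.35 in place of -0.67. Both fits share the labelled cells, and the matched cells are a part of the unlabelled ones, so kept signs are no separate evidence. The matched cells were shallower than the labelled ones, with medians of 30178, 31780, 26363.5 and 31677 UMIs in labelled cells, against 26485, 21672, 21547.5 and 24913 in matched cells.

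Basal genes were among those still called. Krt5 was at 1.5 ± 0.27 (adjusted p = 0.0269), Krt17 at 2.68 ± 0.51 (adjusted p = 0.0363), Aqp3 at 0.55 (adjusted p = 0.0446), Sfn at 0.78 (adjusted p = 0.017) and Cdkn1a at 0.76 (adjusted p = 0.0207). Of the 20 measured basal identity genes 5 were higher, and the median of the list was 0.22 against 1.08 before matching. Reg3g was at 0.18 (adjusted p = 0.818) and Sftpa1 at -0.29 (adjusted p = 0.762), while Bpifb1 was at -3.02 (adjusted p = 0.0715) and Cd36 at -1.23 (adjusted p = 0.00452). The median of the secreted defence list was -0.54, with 2 of 16 lower. After the same matching the hillock and squamous list had a median of 0.31, with 1 of 12 higher. Xenobiotic metabolism genes were at 0.0004, with 2 of 26 lower, and mucin and goblet genes at 0.06, with 0 of 15 called. Notch genes were at -0.12 (0 of 17 called) and dorsal genes at 0.09 (0 of 8 called). Ventral genes were at -0.47, with 1 of 6 lower, and proliferation genes at 0.98, with 2 of 9 higher. Matching on depth in place of secretory share, with the same number of unlabelled cells, gave 273 higher and 239 lower genes, of which 262 and 225 were among the calls against all unlabelled cells. These shared calls rest on the same labelled cells and are no separate evidence either.

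**Figure D4:**
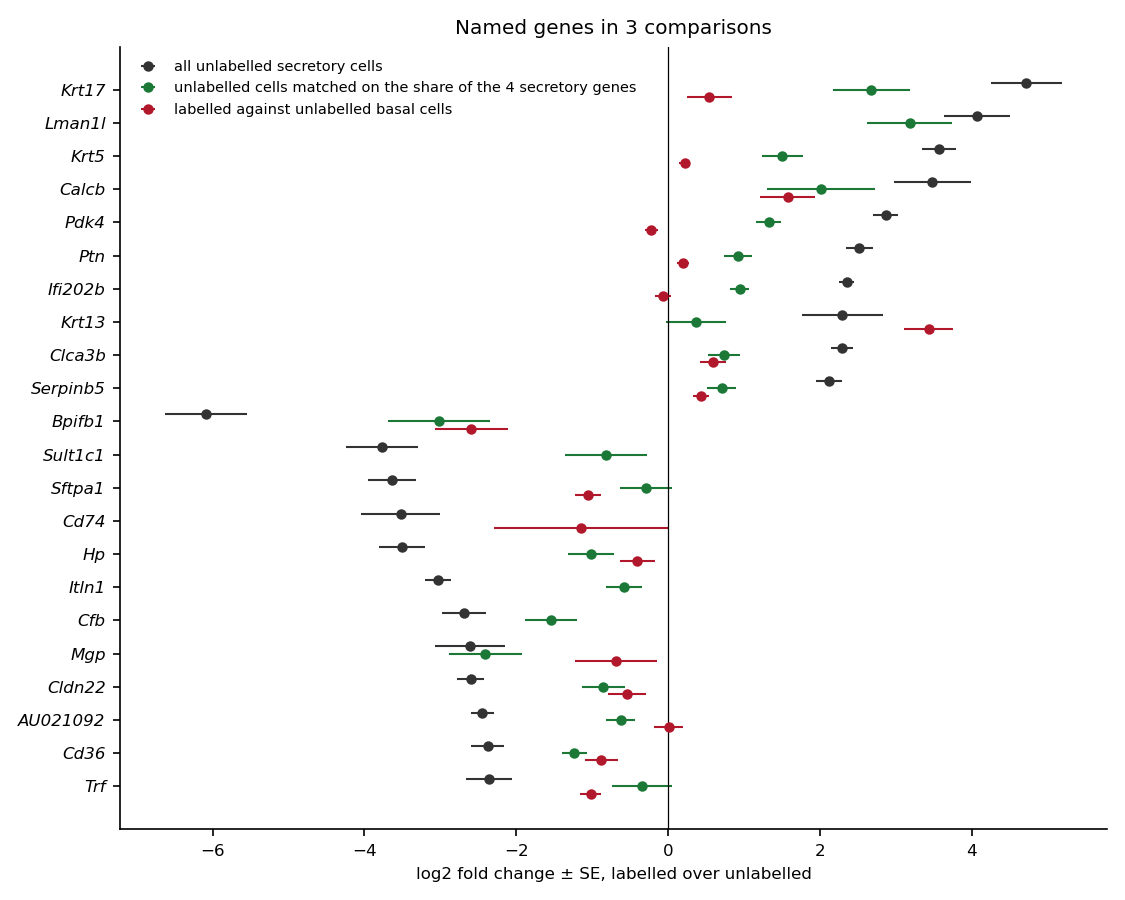
Log2 fold change ± SE of named genes of largest change in labelled over unlabelled cells, for all secretory cells (black), for unlabelled secretory cells matched on the share of the 4 secretory genes (green) and for basal cells (red). Krt5 lies at 3.57, 1.5 and 0.22 in these comparisons, and Sftpa1 at -3.63, -0.29 and -1.05. Every basal cell had to hold at least 3 Krt5 UMIs, so the 0.22 is measured among cells chosen for Krt5.

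The mean secretory share was lower with each higher eGFP class, while mean Krt5 was raised only in the classes above 2. Among cells with 0 to 0.5, 0.5 to 1, 1 to 2, 2 to 5, 5 to 7, 7 to 10 and over 10 eGFP UMIs per 10000, the 4 secretory genes gave a mean over libraries of 40.4%, 38.9%, 34.7%, 23.6%, 20.3%, 18.5% and 16.4% of summed UMIs. Krt5 was at 15.8, 13.4, 6.90, 37.2, 148, 117 and 268 UMIs per 1e6 UMIs outside the 4 secretory genes. The Krt5 mean was thus no higher in cells with 1 to 2 eGFP UMIs per 10000 than in cells below 0.5, although the knockout dorsal library had 12.6 in the class of 1 to 2 and 11.8 in the lowest. Krt15, another basal keratin, had means of 1507, 1535, 1718, 1929, 2494, 2571 and 3127 on the same scale. Its knockout ventral level was 835 in the lowest class and 311 in the class of 2 to 5. The classes above 5 hold between 4 and 58 cells per library, so single steps among them are uncertain.

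Dividing eGFP by all UMIs ties the label to the secretory share, because a cell rich in secretory RNA reads lower at the same eGFP count. With eGFP per 10000 UMIs outside the 4 secretory genes and the same limits, 40, 56, 181 and 73 cells were labelled, and 221 genes were higher and 272 lower.

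**Figure D5:**
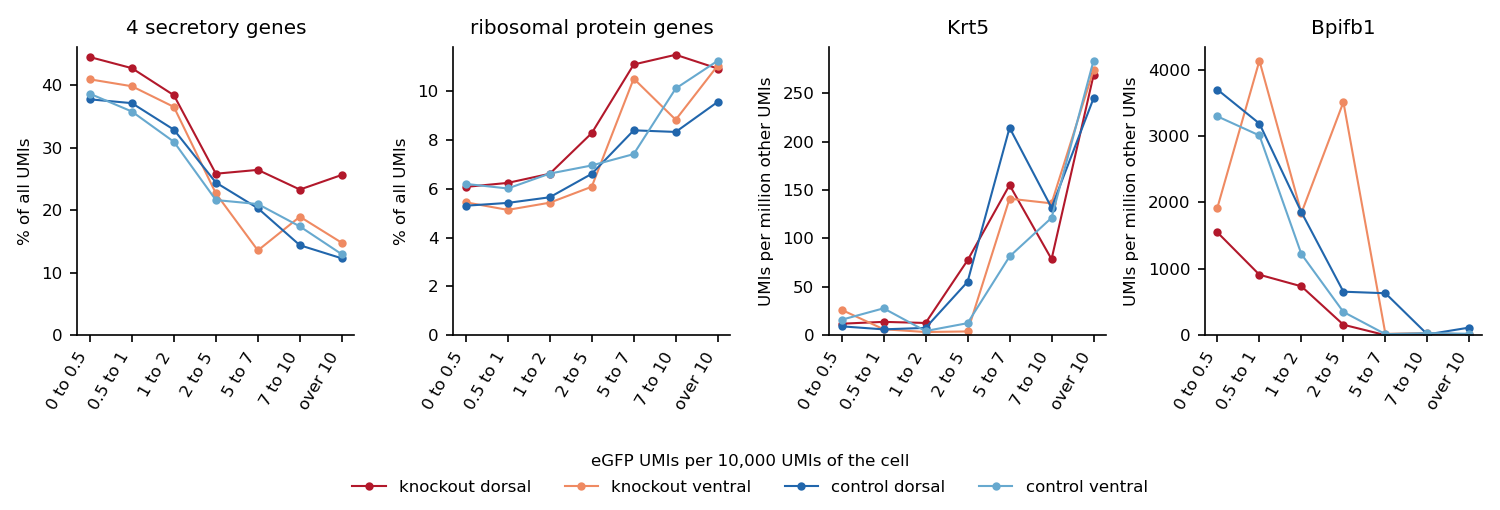
Levels by eGFP class (horizontal axis, eGFP UMIs per 10000 UMIs of the cell), 1 line per library, as % of all UMIs for the 4 secretory genes and the ribosomal protein genes and as UMIs per 1e6 UMIs outside the 4 secretory genes for Krt5 and Bpifb1. The secretory share has a mean of 40.4% in the lowest class and 16.4% in the highest, and Krt5 is highest in cells with over 10 eGFP UMIs per 10000 in all 4 libraries.

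The label went with fewer gene differences in basal cells of the same libraries than in secretory cells set against all unlabelled ones. Among 10332 genes, 136 were higher and 85 lower in labelled basal cells (1.32% and 0.823%). Of the 697 genes higher in labelled secretory cells 47 were also higher in labelled basal cells, which is 6.74% of the secretory and 34.6% of the basal calls. Among lower genes 18 were shared, 2.86% of the secretory and 21.2% of the basal calls. Labelled basal cells were higher in 10 of 15 hillock and squamous genes (median 1.22) and in 11 of 25 proliferation genes (median 2.20). They were higher in 1 of 26 basal identity genes (median 0.01). Those 26 include Krt5, and every basal cell had to hold at least 3 of its UMIs. Krt13 was at 3.43 (adjusted p = 0.0022) in labelled over unlabelled basal cells, and Krt17 was at 0.55 (adjusted p = 0.386).

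The difference between both label effects was tested directly, with all unlabelled secretory cells and without matching on secretory share. Labelled secretory cells had a far lower secretory share than unlabelled ones, while all basal cells were chosen for a low share. Far fewer genes were called in secretory cells after share matching, as given above. How much of the difference between the classes comes from secretory share or from the rules for choosing cells was not tested. Of 10004 genes, 630 had a more positive and 415 a more negative label effect in secretory than in basal cells (6.30% and 4.15%). Dapl1 (log2 difference 2.29 ± 0.10, adjusted p = 1.86e-07), Aqp3 (2.0 ± 0.11, adjusted p = 1.12e-06) and Pdk4 (3.07 ± 0.20, adjusted p = 2.33e-06) had a more positive one, as had Ccdc3 (3.23) and the heparan sulfate enzyme gene Hs6st2 (3.09). Reg3g (-2.39 ± 0.14, adjusted p = 1.34e-06), the mucosal chemokine gene Cxcl17 (-1.73 ± 0.15, adjusted p = 2.17e-05), the transporter gene Slc16a11 (-1.41), AU021092 (-2.47) and the paraoxonase gene Pon1 (-2.29) had a more negative one. Cxcl17 went in opposite directions, at -1.0 (adjusted p = 0.000544) in secretory and 0.74 (adjusted p = 0.00192) in basal cells, and so did Slc16a11, at -0.87 (adjusted p = 0.000304) and 0.53 (adjusted p = 0.00647). For Krt13 the label effects did not differ beyond error (-1.0 ± 0.71, adjusted p = 0.449).

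The label effect differed between dorsal and ventral trachea for 29 of 9273 genes (0.313%), with a more positive label effect dorsally for 5 and a more negative one for 24 (0.0539% and 0.259%). Tff2, a trefoil peptide of mucous glands, was at 6.98, 26839, 2.87 and 11162 CPM in labelled cells, against 57.6, 701, 96.3 and 2632 CPM in unlabelled cells. It was thus higher in ventral and lower in dorsal labelled cells (log2 difference -8.14 ± 0.98, dorsal minus ventral, adjusted p = 0.00268). Muc5b, the main gel-forming mucin of the mouse airway, was at 55.0, 1414, 73.5 and 664 CPM in labelled cells, against 654, 841, 670 and 767 CPM in unlabelled cells (log2 difference -3.62 ± 0.29, adjusted p = 0.000152). The protease inhibitor gene Wfdc12 (-5.48, from 13 labelled cells) and the cobalamin carrier gene Tcn2 (-2.12) were also raised in labelled cells mainly ventrally, and Cytl1 (-5.19) had 1996 of its unlabelled UMIs in the control dorsal library.

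Cells rich in gland products were found mostly in the ventral libraries, and their part in the difference by region was not tested. Cells with at least 10 UMIs per 10000 of Tff2, or of Gp2, Dcpp1, Dcpp2 and Dcpp3 together, were 0 of 29, 9 of 31, 0 of 140 and 5 of 59 labelled cells, against 1 of 284, 11 of 164, 12 of 842 and 39 of 241 unlabelled cells. Without them the overall comparison gave 844 higher and 799 lower genes, Muc5b was at -4.14 in place of -1.43 and Krt5 was at 3.55. More positive dorsally were Hp (2.10 ± 0.27, adjusted p = 0.00292), Cd36 (1.19, adjusted p = 0.0281) and the lipoxygenase gene Alox15 (2.69, adjusted p = 0.00268), all lower in labelled cells of both regions and more so ventrally, besides Fabp5 (2.97) and Ccl21a (6.41). For Ccl21a 1 cell gave 90.6% of the labelled UMIs. By the edgeR test 0 genes differed by region without the knockout dorsal or without the control dorsal library (347 and 571 at an unadjusted p under 0.05), and without the knockout ventral or the control ventral library 35 were more positive and 68 or 141 more negative.

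The label effect differed by genotype for 4 of 9273 genes (0.0431%), 3 more positive and 1 more negative in the knockout (0.0324% and 0.0108%), while 475 had an unadjusted p under 0.05. Calcb, given above, had a larger label difference in knockout than in control libraries (log2 difference 3.10 ± 0.33, adjusted p = 0.0155). It was also read by eGFP class (5 to 7, 7 to 10 and over 10), on the scale used for Lman1l above. Calcb was at 150, 0 and 890 in the knockout dorsal and 23.2, 0 and 844 in the knockout ventral library. The control dorsal library had 177, 95.5 and 146, and the control ventral library 0, 0 and 150. The highest knockout levels thus came from classes of 7 dorsal and 4 ventral cells, so this difference rests on few cells. The gland genes Dcpp3 (4.86), Scgb2b17 (12.10) and Odam (-6.30) had 0 UMIs in all dorsal sums, so their values compare 1 knockout with 1 control ventral library. Dcpp3 was at 3093 and 270 CPM in labelled cells of the knockout and control ventral libraries, against 192 and 489 CPM in unlabelled cells, and 68.8% of its labelled UMIs came from 1 cell. Scgb2b17 UMIs came from 4 labelled and 7 unlabelled cells and Odam UMIs from 3 and 12. Krt5 (-0.71 ± 0.39, adjusted p = 0.914), Aqp3 (-0.05 ± 0.19, adjusted p = 0.994) and Reg3g (0.29 ± 0.18, adjusted p = 0.914) had no label effect that differed by genotype beyond error.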

How the data were processed

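Single-cell 5′ RNA libraries (10x) of papain-dissociated tracheas were analysed, 1 per genotype and region. The deposited matrices hold whole UMI counts per gene and cell, made with Cell Ranger 10.0.0 on GRCm39, per the submitters' processing notes. Cells were chosen as the report states, with no doublets removed, and UMIs were summed per library and label.

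Genes with a mean of at least 5 CPM and 80 UMIs over the 8 sums were tested with edgeR 4.0.16 (R 4.3.3), using TMM scaling, the quasi-likelihood test with library as a block and Benjamini-Hochberg adjustment at 0.05. All adjusted p-values come from this test. Levels are TMM-normalised CPM. Interactions tested genotype, region and cell class. Sums, and not cells, were the replicates. The test was checked on simulated data.

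Members and lists were chosen with earlier results of these data known. Named genes were the 12 with the largest change each way among called genes with the same sign in all 4 libraries and a mean of at least 20 CPM, the 3 lowest p per list and the 5 lowest p each way per interaction. Some genes that met this rule are not reported here. Others were named after their values were seen. Alternatives included DESeq2 1.42.0, other limits, thinning, Scrublet (scanpy 1.11.5) and leaving out each library.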

Additional observations from a re-analysis of the deposited data

Results flagged for a closer look

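In knockout ventral cells Itln1 had a log2 ratio of -4.78 that stood apart from the 3 other libraries, resting on 0 labelled UMIs; such a gap arises by chance in about 1 in 20 groups. The other values were picked out because a test of the difference between groups passed.

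By genotype (knockout minus control) these were Dcpp3 at 4.86, Calcb at 3.10, Scgb2b17 at 12.10 and Odam at -6.30. Scgb2b17 had 0 unlabelled UMIs in the knockout ventral library, so its fitted value is no measure of size.

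By region (dorsal minus ventral) these were Alox15 at 2.69, Ccl21a at 6.41, Hp at 2.10, Fabp5 at 2.97, Cd36 at 1.19, Muc5b at -3.62, Cytl1 at -5.19, Tcn2 at -2.12, Wfdc12 at -5.48 and Tff2 at -8.14.

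By class (secretory minus basal) these were Dapl1 at 2.29, Aqp3 at 2.0, Ccdc3 at 3.23, Hs6st2 at 3.09, Pdk4 at 3.07, Reg3g at -2.39, Slc16a11 at -1.41, Cxcl17 at -1.73, AU021092 at -2.47 and Pon1 at -2.29.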

How the results depend on the processing

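Against 697 higher and 630 lower genes, the counts were 250 and 243 with cells thinned to 8000 UMIs, 242 and 243 with unlabelled cells at 0 eGFP, 314 and 303 at a secretory share of 10% (3 libraries), 137 and 112 in cells with no Krt5 UMI (2 libraries), 273 and 239 after depth matching, 32 and 39 after share matching and 221 and 272 with eGFP per 10000 other UMIs. A filter at 20 CPM gave 452 higher, labelled cells at 10 per 10000 gave 452 higher (2 libraries) and no filter gave 1229 lower. Libraries left out in turn gave 313 to 549 higher and 306 to 545 lower. Both sums of a pair come from the same library, and the paired fit is the one reported; with no replicate block 137 and 121 genes were called, and 14 of the 24 genes of largest change kept their call. Matching, the other eGFP scale and the removal of gland or other-type cells were chosen after seeing the data.

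By genotype (3 and 1), removing doublets gave 5 higher, thinning 7 and 2, and leave-outs 3 to 10 and 1 to 9. By region (5 and 24), removing doublets gave 1 and 11, thinning 1 and 4, and leave-outs 0 to 35 and 0 to 141. By class (630 and 415), thinning gave 278 and 192, and leave-outs 293 to 538 and 176 to 364. Share matching was not run by class.

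Labelled shares were 0.680%, 0.572%, 1.91% and 2.33% at 10 per 10000, and 4.08%, 8.30%, 6.67% and 8.37% after thinning. At a secretory share of 10% they were 2.96% in the knockout ventral and 2.55% in the control dorsal library.

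Signs turned for Reg3g (0.18), Ocln (-0.075) and Cd44 (-0.15) after share matching, Cd74 (0.062) and Hspa1a (0.072) with unlabelled cells at 0 eGFP, Tff1 (-10.83) and Tmed3 (-0.75) with labelled cells at 10 per 10000, Tmed3 (-0.37) without gland product cells, and the Odam genotype interaction (0.83 without the control ventral library, and -7.15 with its sign kept and its call lost without the knockout ventral library). The cause was not tested. A fit on cells of 8000 to 20000 UMIs was not run, since 1 library had at least 20 labelled cells there.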
